A study of Mus musculus with 6 samples.

Results

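MHC class II presentation by macrophages was followed through 10 genes, taken from the count table by their symbols out of 40481 genes: *H2-Aa*, *H2-Ab1*, *H2-Eb1*, *Cd74*, *Ciita*, *H2-DMa*, *H2-DMb1*, *H2-DMb2*, *Cd80* and *Cd86*. All 10 were found, and all 10 were among the 14778 genes that passed the filter on low counts. RNA was sequenced from bone marrow-derived macrophages (BMDMs), 1 poly(A)-selected library per sample, from 3 samples of wild-type mice and 3 of Scd2-m/-m mice. *Scd2* encodes stearoyl-CoA desaturase 2, which makes monounsaturated fatty acids. Scd2-m/-m mice carried floxed *Scd2* alleles and the lysozyme M-Cre transgene, which is active in myelomonocytic cells. The sources used here do not say whether the wild-type mice carried a floxed allele or the Cre. For the study as a whole, mice of both sexes aged 2 to 5 months were used, and no sex or age is tied to a library. Marrow cells of both genotypes were differentiated for 5 to 6 days in a growth medium supplemented with medium conditioned by CMG cells, a source of the growth factor M-CSF, then kept in one with less of it, and no stimulus is named for any library. Nothing in the labels says whether replicates came from separate animals, so p-values measure the spread between these samples, which may be partly technical.

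MHC class II molecules are pairs of an alpha and a beta chain that carry peptides of engulfed material to the cell surface, where CD4 T cells read them. The invariant chain CD74 guides new class II molecules to the endosome, and H2-DM then swaps the last fragment of CD74 for an antigenic peptide. CIITA is the coactivator that switches on the genes of the class II chains, CD74 and H2-DM. CD80 and CD86 are the costimulatory ligands that a T cell needs beside the peptide. Resting macrophages hold class II genes at a low to moderate level, and interferon gamma is the classical signal that raises it.

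Promoter windows, the 250 bases before a start of transcription in RefSeq (build GRCm38.p6), were at hand for 6 of the 10 genes. The 4 shown here are those that hold the letters of the class II control elements, in capitals. These letters are AACNGATG, the core of the X box that RFX binds, TGATTGG, the Y box that NF-Y binds, and TGACGTCA, the cyclic AMP response element, each searched on both strands and chosen after the sequences were read. The windows are chr17:34287824-34288073 on the minus strand for *H2-Aa*, and on the plus strand chr17:34305617-34305866 for *H2-Eb1*, chr17:34152941-34153190 for *H2-DMb1* and chr17:34144999-34145248 for *H2-DMb2*. Those of *H2-Aa* and *H2-Eb1* end where the gene begins in GENCODE, whose coordinates are given for each gene further on. Those of *H2-DMb1* and *H2-DMb2* end at a RefSeq start that lies inside the GENCODE gene, as do the windows of *Cd80* and *H2-DMa*.
H2-Aa: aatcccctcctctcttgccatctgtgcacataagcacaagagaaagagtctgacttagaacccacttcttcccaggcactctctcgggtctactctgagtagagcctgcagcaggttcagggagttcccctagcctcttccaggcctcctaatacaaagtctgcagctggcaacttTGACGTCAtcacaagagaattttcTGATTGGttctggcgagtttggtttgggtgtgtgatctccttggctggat
H2-Eb1: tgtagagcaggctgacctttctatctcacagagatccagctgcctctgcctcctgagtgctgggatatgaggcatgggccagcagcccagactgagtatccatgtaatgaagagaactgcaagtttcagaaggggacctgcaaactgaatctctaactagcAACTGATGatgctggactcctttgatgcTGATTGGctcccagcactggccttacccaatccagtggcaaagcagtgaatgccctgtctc
H2-DMb1: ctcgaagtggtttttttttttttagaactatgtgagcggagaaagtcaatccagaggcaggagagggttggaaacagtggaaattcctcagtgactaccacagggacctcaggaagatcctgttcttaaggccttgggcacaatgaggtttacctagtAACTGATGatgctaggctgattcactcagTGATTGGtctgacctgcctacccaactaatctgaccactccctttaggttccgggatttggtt
H2-DMb2: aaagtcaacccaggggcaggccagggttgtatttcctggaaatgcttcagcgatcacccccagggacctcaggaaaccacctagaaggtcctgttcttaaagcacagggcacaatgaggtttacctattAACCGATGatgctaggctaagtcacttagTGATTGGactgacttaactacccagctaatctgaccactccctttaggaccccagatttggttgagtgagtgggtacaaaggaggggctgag
*H2-Eb1*, *H2-DMb1* and *H2-DMb2* have the X box core followed by the Y box on the same strand, with 20, 21 and 21 bases between them. In *H2-Aa* the cyclic AMP response element stands before the Y box, with 16 bases between. The Y box began 50, 61, 63 and 92 bases before the RefSeq start in *H2-Aa*, *H2-Eb1*, *H2-DMb1* and *H2-DMb2*. Of all 32851 promoter windows of this length, 1.98% hold AACNGATG, 7.23% hold TGATTGG and 1.55% hold TGACGTCA. The X box core followed within 40 bases by the Y box is in 8 windows, or 0.0244%, and the 5 beside those shown belong to *H2-Eb2*, *H2-M10.4*, *BC051142*, *G3bp2* and *Gm35444*. The window of *Cd80* and both windows of *H2-DMa* hold none of the 3 motifs, which says only that these letters are not there.

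The libraries held from 46285176 to 57629638 counts on genes, and levels are given in CPM, the counts of a gene relative to the size of its library as scaled by edgeR's TMM method. Where 3 values are given for a genotype, they stand in the order of replicates 1, 2 and 3. The genotypes were compared with edgeR's quasi-likelihood test, and a gene was called when its p-value, adjusted by the Benjamini-Hochberg method over all 14778 genes (FDR), was below 0.05. The targeted gene *Scd2* had 62.7 to 77.8 CPM in wild-type and 38.0 to 59.5 CPM in Scd2-m/-m libraries, a log2 fold change of −0.59 ± 0.19 (SE, FDR = 0.100, edgeR) with no overlap between the genotypes. The Scd2-m/-m mean was thus still 66.2% of the wild-type mean, and Scd2-m/-m replicate 1, at 59.5 CPM, was close to the lowest wild-type library. *Lyz2*, the gene of the lysozyme M promoter, was at 39.7% of the wild-type mean (FDR = 6.42e-08, edgeR). Of 11 macrophage markers, all of them above 1 CPM, 6 were lower and 1 was higher in Scd2-m/-m BMDMs (63.6% called by edgeR, beside 17.5% of all genes tested).

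Seen per kilobase of exonic sequence, the invariant chain stood above the chains it escorts. In wild-type BMDMs *Cd74* had 460 ± 53.0 RPKM, or CPM per kilobase (mean ± SD, n = 3). The beta chains followed, with 86.9 ± 19.4 RPKM for *H2-Ab1* and 52.3 ± 11.3 RPKM for *H2-Eb1*, and the alpha chain *H2-Aa* had 37.4 ± 8.96 RPKM. The peptide exchange factor came next, at 20.9 ± 3.37 RPKM for *H2-DMb1* and 10.3 ± 1.98 RPKM for *H2-DMa*. The coactivator *Ciita* had 3.40 ± 0.951 RPKM, *Cd86* 3.03 ± 0.805 RPKM, *H2-DMb2* 1.61 ± 0.157 RPKM and *Cd80* 1.60 ± 0.320 RPKM. Each gene stood above its next in this order in 6 of 6 libraries, except that *H2-DMb2* was above *Cd80* in 2 of 6. The place of *H2-Eb1* over *H2-Aa* rests on the length used, since with the length of the principal transcript in place of all exons *H2-Aa* was the higher in all 6 libraries. With that length the wild-type means were 548 RPKM for *Cd74*, 184 RPKM for *H2-Ab1*, 126 RPKM for *H2-Aa* and 60.9 RPKM for *H2-Eb1*. The size of the gap below *Cd74* thus rests on the length too. In Scd2-m/-m BMDMs the means were 336 ± 43.5 RPKM for *Cd74*, 68.1 ± 9.67 RPKM for *H2-Ab1*, 57.0 ± 6.94 RPKM for *H2-Eb1* and 34.7 ± 6.05 RPKM for *H2-Aa*.

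**Figure D1:**
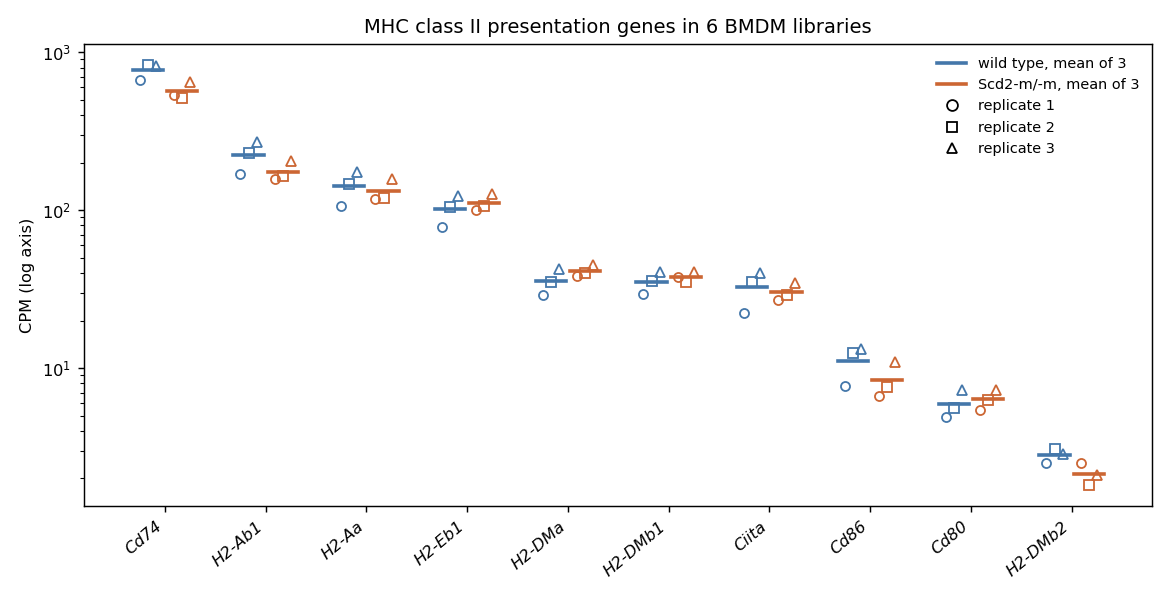
CPM (log axis) of the 10 genes in each of the 6 libraries, with circles, squares and triangles for replicates 1, 2 and 3 and a line at the mean of each genotype. *Cd74* and *H2-DMb2* are the genes whose genotypes do not overlap, and wild-type replicate 1 is the lowest wild-type library of each gene.

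Only the invariant chain was called. *Cd74* (ENSMUSG00000024610, GRCm38 chromosome 18, 60803848 to 60812652, plus strand) stood at 670, 830 and 818 CPM in the wild-type libraries against 536, 510 and 647 CPM in the Scd2-m/-m libraries. Every Scd2-m/-m library lay below every wild-type library, though the highest of them was close to wild-type replicate 1. The means were 773 ± 89.0 and 565 ± 73.0 CPM (SD, n = 3 each), a fall to 73.1% of wild type, with a log2 fold change of −0.45 ± 0.10 (SE, 95% interval −0.67 to −0.23, FDR = 0.00960, edgeR). The smallest count behind these values was 25635, so counting error is small beside the spread between libraries. The call depended on single Scd2-m/-m libraries, since without replicate 1 the value was −0.42 (FDR = 0.0540, edgeR) and without replicate 2 −0.38 (FDR = 0.0518, edgeR). In bulk RNA, fewer cells that express a gene and less of its RNA per cell cannot be told apart, here and in all that follows.

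None of the chains that CD74 escorts was called, and in each of them the genotypes overlapped. *H2-Ab1* (ENSMUSG00000073421, chromosome 17, 34257689 to 34269419, plus strand), the beta chain of the A molecule, gave 170, 231 and 269 CPM in wild-type against 158, 163 and 203 CPM in Scd2-m/-m libraries. Wild-type replicate 1 fell among the Scd2-m/-m libraries, and the other two wild-type libraries lay above all of them. The log2 fold change was −0.35 ± 0.19 (SE, 95% interval −0.83 to 0.13, FDR = 0.295, edgeR), and without wild-type replicate 1 it was −0.51 (FDR = 0.00577, edgeR). *H2-Aa* (ENSMUSG00000036594, 34282744 to 34287823, minus strand), its alpha chain, had 106, 146 and 174 CPM in wild-type against 118, 119 and 158 CPM in Scd2-m/-m libraries. The Scd2-m/-m libraries all lay inside the wild-type range, with a log2 fold change of −0.11 ± 0.22 (SE, 95% interval −0.67 to 0.46, FDR = 0.801, edgeR). *H2-Eb1* (ENSMUSG00000060586, 34305867 to 34316674, plus strand), the beta chain of the E molecule, had 78.2, 105 and 122 CPM in wild-type against 100, 107 and 126 CPM in Scd2-m/-m libraries. Wild-type replicate 1 was again the lowest of the 6 libraries, and the log2 fold change was 0.13 ± 0.18 (SE, 95% interval −0.30 to 0.56, FDR = 0.695, edgeR). *H2-Ea-ps*, the gene of the alpha chain that would pair with *H2-Eb1*, had 1 count over the 6 libraries. *H2-Aa* and *H2-Eb1* changed sign with 1 library left out, *H2-Aa* to 0.0635 without wild-type replicate 3 and *H2-Eb1* to −0.0328 without wild-type replicate 1.

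Of the genes for the H2-DM exchange factor, neither the alpha chain nor the main beta chain was called. *H2-DMa* (ENSMUSG00000037649, 34119541 to 34139101, plus strand) had 29.0, 35.3 and 42.7 CPM in wild-type against 38.4, 40.2 and 44.7 CPM in Scd2-m/-m libraries. Wild-type replicate 3 lay inside the Scd2-m/-m range and the other wild-type libraries below it, with a log2 fold change of 0.20 ± 0.13 (SE, 95% interval −0.08 to 0.49, FDR = 0.317, edgeR). Without wild-type replicate 3 it was 0.35 (FDR = 0.0192, edgeR). *H2-DMa* shares 360 exonic bases, 10.4% of its length, with *Brd2* on the opposite strand, and the sources used here do not say whether counting used the strand. *H2-DMb1* (ENSMUSG00000079547, 34153072 to 34160230, plus strand) had 29.2, 35.4 and 40.6 CPM in wild-type against 37.8, 35.2 and 40.6 CPM in Scd2-m/-m libraries. The genotypes overlapped, with a log2 fold change of 0.11 ± 0.10 (SE, 95% interval −0.12 to 0.34, FDR = 0.521, edgeR).

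The second beta chain gene, *H2-DMb2* (ENSMUSG00000037548, 34143307 to 34151555, plus strand), was a small fraction of the first and had a lower mean in Scd2-m/-m BMDMs. It had 125, 141 and 146 counts in wild-type against 139, 91 and 123 counts in Scd2-m/-m libraries, or 2.52, 3.06 and 2.87 CPM and 2.49, 1.81 and 2.12 CPM. The highest Scd2-m/-m library and the lowest wild-type library were almost equal, so the groups did not overlap but touched. The log2 fold change was −0.39 ± 0.18 (SE, 95% interval −0.77 to −0.01, FDR = 0.149, edgeR). The longest transcripts of *H2-DMb1* and *H2-DMb2* are 94.8% identical over 1211 aligned bases, and 369 of their 50-base stretches are shared, so reads could be split between them and both values are uncertain. No 50-base stretch is shared between *H2-Aa* and *H2-Ab1*, between *H2-Ab1* and *H2-Eb1* or between *H2-Eb1* and its neighbour *H2-Eb2*.

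*Ciita* (ENSMUSG00000022504, chromosome 16, 10480059 to 10528418, plus strand), the gene of the class II coactivator, was not called. It had 22.4, 34.9 and 40.0 CPM in wild-type against 27.0, 29.1 and 34.4 CPM in Scd2-m/-m libraries. All Scd2-m/-m libraries lay inside the wild-type range, which spanned 1.79-fold from lowest to highest against 1.27-fold in Scd2-m/-m BMDMs. The log2 fold change was −0.10 ± 0.23 (SE, 95% interval −0.69 to 0.48, FDR = 0.820, edgeR). Left-out libraries moved it from −0.31 (FDR = 0.0416, edgeR) without wild-type replicate 1 to 0.0767 without wild-type replicate 3. *Ciita* shares 329 exonic bases, 3.45% of its length, with *Dexi* on the opposite strand.

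The costimulatory ligands *Cd80* and *Cd86*, both on chromosome 16, were low in both genotypes. *Cd86* (ENSMUSG00000022901, 36603869 to 36666081, minus strand) had 7.72, 12.4 and 13.1 CPM in wild-type against 6.63, 7.54 and 10.96 CPM in Scd2-m/-m libraries. Its log2 fold change was −0.40 ± 0.26 (SE, 95% interval −1.03 to 0.22, FDR = 0.362, edgeR), and −0.61 without wild-type replicate 1 (FDR = 0.0337, edgeR). That interval is the widest of the 10 genes. Scd2-m/-m replicate 3 lay well above its companions, and wild-type replicate 1 well below its own. *Cd80* (ENSMUSG00000075122, 38455561 to 38496335, plus strand) had 4.92, 5.59 and 7.22 CPM in wild-type against 5.43, 6.29 and 7.28 CPM in Scd2-m/-m libraries, and the genotypes overlapped almost wholly. The log2 fold change was 0.10 ± 0.15 (SE, 95% interval −0.23 to 0.43, FDR = 0.717, edgeR), and it changed sign without wild-type replicate 1 (−0.0194) or Scd2-m/-m replicate 3 (−0.0142).

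Counted over the 10 genes, 0 were called higher and 1 lower by edgeR, beside 17.5% of all genes tested that were called, 9.65% higher and 7.84% lower. *H2-DMb2* was the other gene with an unadjusted p under 0.05. The genotypes did not overlap in 2 of the 10, both lower, beside 34.9% of all genes without overlap and 17% that were lower without overlap. The median log2 fold change was −0.11 over the 10 genes and 0.00387 over all genes tested. None of the 10 had an absolute log2 fold change above 1, called or not, beside 4.07% of all genes tested, and 0.663% of all genes were called with one above 2. The count of calls depended on single libraries. Without wild-type replicate 1, 4 of the 10 were called lower (*Cd74*, *H2-Ab1*, *Ciita* and *Cd86*), beside 6.65% of all genes in that fit that were called lower. Without wild-type replicate 3 there were 2 calls (*Cd74* lower and *H2-DMa* higher), and without Scd2-m/-m replicate 1 or 2 there were 0. With all 6 libraries, limma-voom with quality weights called 4 lower (*Cd74*, *H2-Ab1*, *H2-DMb2* and *Cd86*), beside 14.8% of all genes that it called lower.

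**Figure D2:**
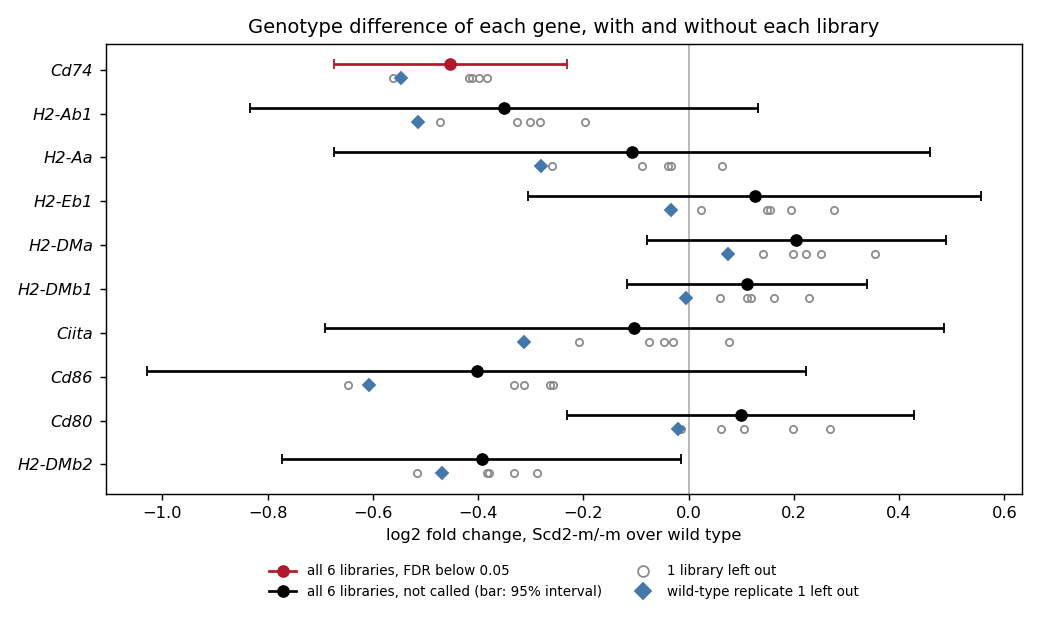
log2 fold change, Scd2-m/-m over wild type, of each gene with all 6 libraries (filled circle, bar for the 95% interval) and with each library left out in turn (open circles, blue diamond for wild-type replicate 1). Only *Cd74* is called, at −0.45, and every blue diamond lies to the left of the value with all libraries.

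Most of the 10 genes shared an order of libraries within a genotype. In 8 of the 10, wild-type replicate 1 was the lowest and replicate 3 the highest of the wild-type libraries, an order held by 21.3% of all genes tested. In *Cd74* and *H2-DMb2* replicate 1 was also the lowest but replicate 2 the highest. Among Scd2-m/-m libraries replicate 3 was the highest for each gene except *H2-DMb2*. The spread within a genotype was set against that of all tested genes whose mean CPM was within 2-fold of the gene's own. The SD of log2 CPM within genotypes was 0.400 for *Cd86*, 0.335 for *Ciita*, 0.307 for *H2-Aa*, 0.276 for *H2-Ab1* and 0.260 for *H2-Eb1*, each above the spread of at least 98.9% of the genes of like level. It was 0.212 for *H2-DMa*, 0.183 for *H2-DMb1* and 0.177 for *Cd74*, at the percentiles 97.5, 95.6 and 93.8. *Cd80* at 0.249 and *H2-DMb2* at 0.191 stood at the percentiles 89.0 and 40.9. *Cd74*, the one gene called, had the narrowest spread of the 10.

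To find genes of like pattern, each of 11799 genes with at least 1 CPM was set against the mean standardised log2 CPM of *H2-Aa*, *H2-Ab1*, *H2-Eb1* and *Cd74* over the 6 libraries. This mean was −0.879, 0.581 and 1.19 in wild-type and −0.742, −0.657 and 0.505 in Scd2-m/-m replicates 1, 2 and 3. Among the other 6 of the 10 genes, *Cd86* (Pearson r = 0.963, n = 6 libraries) and *Ciita* (r = 0.943) were most like it, then *Cd80* (r = 0.715), *H2-DMb1* (r = 0.667), *H2-DMa* (r = 0.548) and *H2-DMb2* (r = 0.483). Of its own genes, *H2-Aa* and *H2-Ab1* had r of 0.978 and 0.966, and *Cd74* and *H2-Eb1* 0.777 and 0.750. The 8 other genes most like it were *Sesn1*, *Slc9a9*, *Rpl9-ps6*, *Rassf4*, *Il6ra*, *Etohd2*, *Ivns1abp* and *Lima1*, with r from 0.980 to 0.986. *Slc9a9*, which encodes an endosomal sodium and proton exchanger, had a range close to that of the class II chains, with 115, 167 and 202 CPM in wild-type against 113, 125 and 154 CPM in Scd2-m/-m libraries. The 4 most opposite genes were *Pgam1*, a glycolytic enzyme, with r = −0.995, *Tnfrsf23*, *Cnppd1* and *Xylt1*. With 6 points and so many genes compared, these correlations are a description, and the values of all genes in a library share its culture and depth.

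Because most of the genes shared this order of libraries, each gene was also set against *H2-Ab1* of the same library, a comparison chosen after the values were seen. The counts of *H2-Eb1* were 46.1, 45.4 and 45.4% of those of *H2-Ab1* in wild-type replicates 1, 2 and 3 and 63.4, 65.2 and 62.0% in Scd2-m/-m replicates. The ratio was nearly constant within each genotype and did not overlap between them, with means of 45.6 ± 0.386% and 63.5 ± 1.62% (SD, n = 3 each). *H2-Aa*, the partner chain of *H2-Ab1*, gave 62.6, 63.2 and 64.8% in wild-type and 74.6, 73.0 and 77.8% in Scd2-m/-m libraries. *H2-DMa* gave 17.1, 15.3 and 15.9% against 24.3, 24.6 and 22.0%. In both genes the lowest Scd2-m/-m ratio was above the highest wild-type ratio.

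Relative to their wild-type mean, the ratios to *H2-Ab1* in Scd2-m/-m BMDMs were 147% for *H2-DMa*, 139% for *H2-Eb1*, 137% for *H2-DMb1*, 136% for *Cd80*, 120% for *Ciita* and 118% for *H2-Aa*. These 6 of the 9 genes had no overlap between the genotypes, all higher, beside 20.3% of all other genes without overlap in their ratio to *H2-Ab1* and 19.5% that were higher without overlap. Those shares are not a like baseline. *H2-Ab1* has the order of libraries that most of the 10 genes share, so dividing by it can narrow their spread within a genotype. Genes without that order take on the spread of *H2-Ab1*. The ratios of *Cd74* (91.6%), *H2-DMb2* (96.1%) and *Cd86* (95.8%) overlapped. The direction depended on the gene set below, since *H2-Ab1* itself was at 78.4% of its wild-type mean in CPM. Set over *H2-Aa* instead, 5 of 9 ratios had no overlap, those of *H2-Eb1* (118% of the wild-type mean) and *H2-DMa* (124%) higher and those of *H2-Ab1* (84.6%), *Cd74* (77.4%) and *Cd86* (80.9%) lower, beside 9.72% of all genes without overlap in that ratio, 7.72% higher and 2% lower. As with *H2-Ab1*, the shares of all genes are not a like baseline for ratios to *H2-Aa*. Over all pairs of the 10 genes, 23 of 45 had a ratio without overlap. These pairs reuse the same 10 genes and the share among pairs of all genes was not computed, so this count is only a description. With 3 libraries against 3, the exact permutation test of a ratio cannot give a two-sided p below 0.1. An edgeR fit of all genes with counts scaled to *H2-Ab1* called 0 of the 9, beside 6.25% of all genes called and 5.87% called higher, and by that fit only *H2-DMa* had a 95% interval that left out 0 (log2 fold change 0.55, 0.05 to 1.06, FDR = 0.215, edgeR). Without wild-type replicate 1 the same fit called 3 higher, *H2-Eb1* (0.48, FDR = 0.0315), *H2-DMa* (0.60, FDR = 0.0118) and *H2-DMb1* (0.52, FDR = 0.0261). That fit called 49.8% of all genes higher, so the share of the 9 genes called was below that of all genes.

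**Figure D3:**
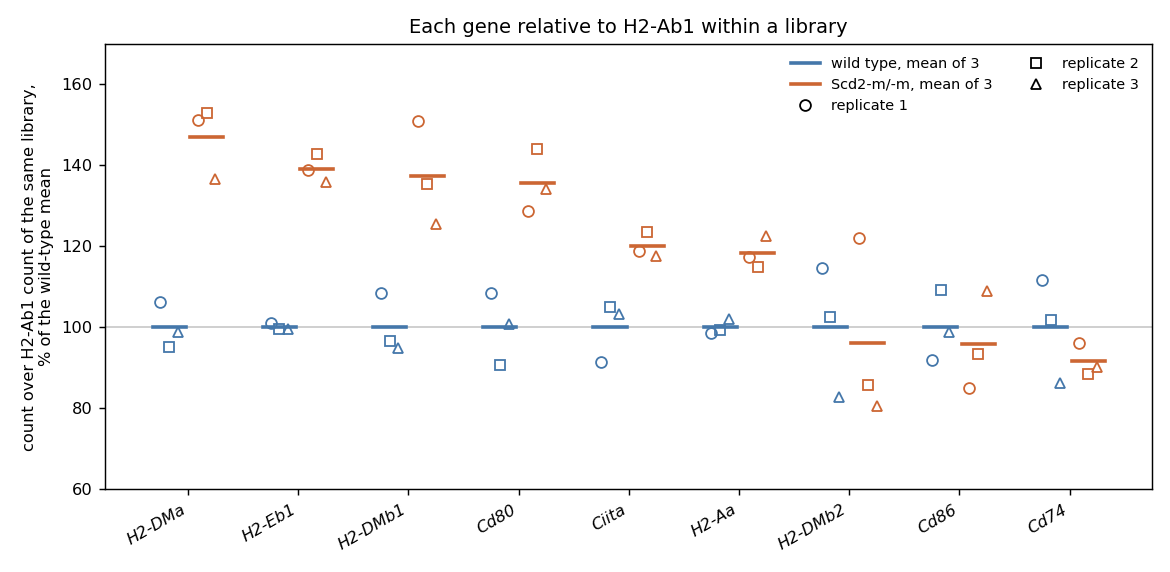
Count of each gene over the *H2-Ab1* count of the same library, as a percentage of the wild-type mean, with circles, squares and triangles for replicates 1, 2 and 3 and a line at each mean. The Scd2-m/-m libraries of the 6 genes on the left lie above all wild-type libraries, and those of *H2-DMb2*, *Cd86* and *Cd74* are mixed with them.

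The rest of the pathway was read through 5 lists with 76 genes beside the 10, of which 66 were tested and 22 called by edgeR, 7 higher and 15 lower. Their median was −0.0229 on the log2 scale. No list was tested as a whole. The share called was between 25.0% and 41.7% in the 5 lists, beside 17.5% of all genes tested. Without Scd2-m/-m replicate 2 there were 11 calls in these lists and without wild-type replicate 2 there were 13. Of 14 tested genes for other class II chains and antigen processing, 4 were higher and 0 lower. *Ctsd*, a lysosomal aspartic protease, had means of 8514 ± 387 and 10853 ± 322 CPM (SD, n = 3 each), a rise on the log2 scale of 0.35 ± 0.07 (SE, FDR = 0.00347, edgeR). The cysteine protease *Ctsb* rose by 0.33 on the log2 scale (FDR = 0.00746) and *Arl8b*, a small GTPase of lysosomes, by 0.21 (FDR = 0.0263). *H2-Oa*, the alpha chain of the H2-O inhibitor of H2-DM, rose from 15, 7 and 14 counts to 23, 32 and 40 counts, a log2 fold change of 1.23 ± 0.40 (SE, FDR = 0.0475, edgeR). That level is below 1 CPM in every library. Its partner *H2-Ob* had a log2 fold change of 0.62 (FDR = 0.137, edgeR). *H2-Ea-ps*, the alpha chain gene of the E molecule that is a pseudogene in C57BL/6 mice, had 1 count over all 6 libraries, and *H2-Eb2* was too low to test.

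Among 15 genes that act on class II transcription, 1 was higher and 4 were lower. *Rfx5*, a subunit of the RFX complex that binds the X box shown above, rose from 13.3 ± 0.915 to 16.5 ± 1.08 CPM (SD, n = 3 each), by 0.31 on the log2 scale (FDR = 0.0251, edgeR). *Nfya*, a subunit of the NF-Y complex that binds the Y box, fell by 0.33 on the log2 scale, from 145 ± 12.5 to 115 ± 7.47 CPM (FDR = 0.00543, edgeR). These calls have opposite signs, and *Rfxap* and *Rfxank*, the other RFX subunits, were not called (log2 fold changes −0.10 and 0.24). *Prdm1*, which encodes Blimp-1, a repressor of *Ciita* in plasma cells, had 40.4, 41.4 and 37.0 CPM in wild-type against 27.2, 27.9 and 25.8 CPM in Scd2-m/-m libraries, a log2 fold change of −0.55 ± 0.07 (SE, FDR = 8.21e-05, edgeR). The ETS-family repressor *Etv6* had −0.29 (FDR = 0.00549). *Spi1*, which encodes the myeloid factor PU.1 and falls outside the rule for named genes, had −0.23 (FDR = 0.0323).

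Of 12 tested genes in the list for the route from interferon gamma to *Ciita*, which also holds cytokine genes that restrain it, 0 were higher and 5 were lower. Their median was −0.20 on the log2 scale. *Ifng* itself had 1 count over the 6 libraries. *Ifngr1*, the ligand-binding chain of its receptor, had 388, 402 and 394 CPM in wild-type against 273, 267 and 305 CPM in Scd2-m/-m libraries, a log2 fold change of −0.49 ± 0.06 (SE, FDR = 1.45e-04, edgeR). Its groups lay well apart, and the second receptor chain *Ifngr2* fell by 0.26 on the log2 scale (FDR = 0.00772). *Irf1*, a factor of the interferon-responsive *Ciita* promoter, fell by 0.28 (FDR = 0.0135). The receptor kinases were not called, with log2 fold changes of 0.02 for *Jak1* and −0.04 for *Jak2*. *Tgfb1* (−0.22, FDR = 0.0180) and *Il10ra* (−0.23, FDR = 0.0213), of cytokine pathways that restrain class II expression, were lower too, and the latter falls outside the rule for named genes. *Il10*, the ligand of that receptor, was not called, though its genotypes did not overlap, and its wild-type mean was 3.96 CPM against 5.41 CPM in the Scd2-m/-m libraries (log2 fold change 0.45, FDR = 0.0599, edgeR).

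Of 15 tested costimulatory and coinhibitory genes beside *Cd80* and *Cd86*, 1 was higher and 5 were lower. *Icosl*, the ligand of ICOS, a costimulatory receptor of T cells, had 49.5, 52.8 and 48.1 CPM in wild-type against 38.9, 34.1 and 32.8 CPM in Scd2-m/-m libraries, a log2 fold change of −0.51 ± 0.07 (SE, FDR = 3.24e-04, edgeR). *Nectin2*, a ligand of CD226 and TIGIT, fell by 0.40 on the log2 scale (FDR = 0.00187), and *Tnfrsf14*, which binds BTLA, fell by 0.30 (FDR = 0.00482). *Lgals9*, which encodes galectin-9, rose by 0.35 (FDR = 0.00324). *Cd40* was not called, with a log2 fold change of 0.07 (FDR = 0.623, edgeR). Among 12 tested neighbours on chromosome 17, *Tap1*, a peptide transporter of class I presentation, rose by 0.29 (FDR = 0.00317), and *Brd2*, whose exons overlap those of *H2-DMa*, had −0.19 (FDR = 0.0332), with *H2-Oa* the other gene called there.

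**Figure D4:**
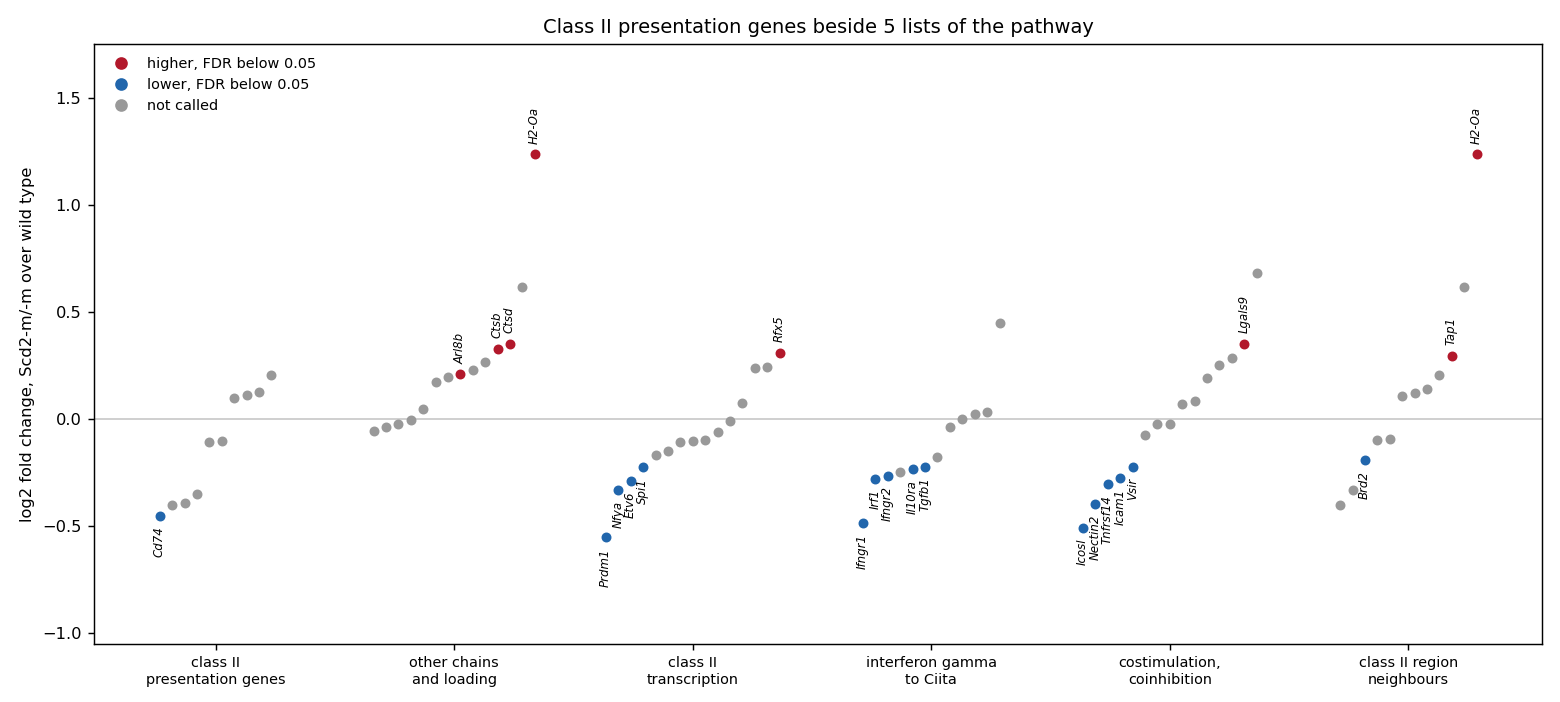
log2 fold change, Scd2-m/-m over wild type, of the 10 genes and of each tested gene in 5 lists of the pathway, with genes in order of size within a list and called genes named (red for higher, blue for lower). The called genes of the interferon gamma list are all lower, those of the list of other chains and loading are all higher, and *H2-Oa* stands in 2 lists.

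Class II genes are also marks of dendritic cells and B cells, so markers of these cells were read beside them. The 19 dendritic cell markers summed to between 251 and 306 CPM in wild-type and between 257 and 291 CPM in Scd2-m/-m libraries. Of the 17 tested, 6 were higher and 1 lower. The 6 (*Ccr7*, *Flt3*, *Dpp4*, *Fscn1*, *Ccl22* and *Bcl11a*) lay between 0 and 1.52 CPM in every library. The lower one, *Il4i1*, had a wild-type mean of 6.01 CPM and a Scd2-m/-m mean of 4.44 CPM. Its genotypes did not overlap (log2 fold change −0.43, FDR = 0.0240, edgeR). *Cd83*, *Itgax*, *Batf3* and *Mgl2*, with means above 1 CPM in both genotypes, were not called (log2 fold changes −0.10, −0.36, −0.03 and −0.10). *Tcf4*, at 196 and 190 CPM and not called, made up most of the sum. The 15 B cell markers found summed to between 455 and 529 CPM in wild-type and between 464 and 509 CPM in Scd2-m/-m libraries, most of it *Cd37*, at 387 and 379 CPM. Of the 9 tested, 4 were higher (*Cd79a*, *Cd79b*, *Fcmr* and *Spib*) and 0 lower. *Cd79b* had 1.83, 3.12 and 2.54 CPM in wild-type against 5.93, 4.12 and 4.99 CPM in Scd2-m/-m libraries (FDR = 0.00260, edgeR). *Cd79a*, *Fcmr* and *Spib* lay below 1 CPM in every library. *Pax5*, too low to test, was near 0, with 0, 0 and 4 counts in wild-type against 4, 4 and 10 counts in Scd2-m/-m libraries, at most 0.172 CPM. *Ighm*, the heavy chain of immunoglobulin M and another B cell marker, was not near 0. It had 51.9, 91.1 and 116 CPM in wild-type against 77.3, 78.2 and 110 CPM in Scd2-m/-m libraries. Wild-type replicate 1 was the lowest of the 6, as in the class II chains *H2-Aa* and *H2-Eb1*. The share of all genes with that library lowest was not counted. *Ighm* was not called (log2 fold change 0.03, FDR = 0.970, edgeR). Of 12 T cell and NK cell markers, 3 were tested and 0 called, and *Cd28* (102 and 114 CPM) and *Cd4* (35.8 and 35.7 CPM) made up most of their sum of 115 to 162 CPM in wild-type and 144 to 164 CPM in Scd2-m/-m libraries. Monocyte and progenitor markers were higher in 6 and lower in 1 of 12 tested, and neutrophil markers higher in 5 and lower in 1 of 8. That is 58.3% and 75% called, and 41.2% and 44.4% of the dendritic cell and B cell markers tested were called, beside 17.5% of all genes tested. The part of such cells in the values of the class II genes was not tested.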

How the data were processed

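STAR was the authors' aligner, run against mouse GRCm38 as Ensembl distributes it, and the deposited values are raw counts per gene, whole numbers that were not normalized. The sources used here do not give the counting tool, its use of strand or what 1 count stands for. Even numbers made up 60.9% to 64.9% of the counts from 1 to 20 in a library. The authors' own comparison of the genotypes, which the submitters' notes tie to edgeR and limma and which holds fold changes and p-values, was not used. From 40757 entries, 276 repeats of a gene were removed, leaving 40481 genes. edgeR 4.0.16 in R 4.3.3 (filterByExpr, TMM, glmQLFit with robust estimation, glmQLFTest) compared the genotypes over 14778 genes, with Benjamini-Hochberg adjustment and genotype as the one term. The paper's size threshold, an absolute log2 fold change above 2, was counted beside it. The standard error is the fold change over the square root of the F statistic. CPM and RPKM are this re-analysis' own values, with exonic lengths of GENCODE found for 99.7% of genes.

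The 10 genes and the lists were chosen with earlier results of these data known, and so was the rule for named genes, which takes the 10, in each list the called genes of smallest p (at most 4), 8 genes most like the class II chains and 4 most opposite, and markers above 1 CPM. Those markers of B cells, monocytes and progenitors, neutrophils and macrophages are not all named in the text. Other genes named (*Spi1*, *Il10ra*, *Il10*, *Rfxap*, *Rfxank*, *Jak1*, *Jak2*, *Cd40*, *H2-Ob*, *Ifng*, *H2-Ea-ps*, *H2-Eb2* and markers below 1 CPM) were chosen after their values were seen. Alternatives were RLE and upper-quartile factors, DESeq2 1.42.0, limma-voom (limma 3.58.1) with and without quality weights, other filters and thresholds, halved counts, repeats kept, the replicate number as a block, and each library left out. The scaling to *H2-Ab1* or *H2-Aa*, the ratios to them and the spread among genes of like level were added after the data were seen.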

Additional observations from a re-analysis of the deposited data

How the results depend on the processing

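Of the 10 genes, 1 was called with RLE or upper-quartile factors, DESeq2, limma-voom, each other filter on low counts, halved counts, repeats kept and an FDR below 0.01, and 0 with an absolute log2 fold change above 1 required. *Cd74* had log2 fold changes of −0.59 to −0.44 over the settings that kept all libraries and the TMM or other library scaling (FDR 6.34e-10 to 0.0119), and −0.56 to −0.38 with a library left out (FDR 4.87e-04 to 0.0540). Limma-voom with quality weights called 4 of the 10 lower, adding *H2-Ab1* (−0.44, FDR = 0.00398), *Cd86* (−0.57, FDR = 0.0118) and *H2-DMb2* (−0.58, FDR = 0.0127). By that setting 4507 of all genes were called, 2325 of them higher, against 2585 by edgeR, and 34 genes of the pathway lists against 22. With a library left out, the calls ranged from 0 to 4 for the 10 genes, from 1440 to 2567 for all genes and from 11 to 22 for the pathway lists, the lowest of the last 2 without Scd2-m/-m replicate 2, and without wild-type replicate 2 they were 1490 and 13. Relative to *H2-Ab1* they ranged from 0 to 3, and scaled to *H2-Aa* 0 were called. Values that changed sign without wild-type replicate 1 were those of *H2-Eb1* (−0.0328), *H2-DMb1* (−0.0053) and *Cd80* (−0.0194). Without wild-type replicate 3 they were those of *H2-Aa* (0.0635) and *Ciita* (0.0767), without Scd2-m/-m replicate 3 that of *Cd80* (−0.0142), and scaled to *H2-Ab1* those of *H2-Aa* (0.24) and *Ciita* (0.26). With a library left out, these values ranged from −0.28 to 0.0635 for *H2-Aa*, from −0.0328 to 0.28 for *H2-Eb1*, from −0.31 to 0.0767 for *Ciita*, from −0.0053 to 0.23 for *H2-DMb1* and from −0.0194 to 0.27 for *Cd80*. The cause was not tested for any of these. Over all alternatives, 149 values of a gene kept their direction and their side of the threshold, 9 passed it, 3 no longer did and 8 changed sign.

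Both genotypes have replicates numbered 1 to 3. Deviations from the genotype means of libraries with the same number had correlations of 0.0530, −0.0196 and 0.0398, all under 0.1, so the number was not taken as a pairing. With 3 libraries a genotype, these correlations cannot show whether the libraries were paired. With the replicate block, 2974 of all genes were called, 1359 of them lower, and 3 of the 10 were called lower, *Cd74*, *H2-Ab1* (−0.34, FDR = 0.00380) and *Cd86* (−0.40, FDR = 0.0258), and not every library correlated best with its own number. With 3 libraries a genotype and spreads this wide, differences of the size of the 95% intervals cannot be seen, and a gene that was not called is not shown to be equal.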

Other observations

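*Mrc1*, the mannose receptor of alternatively activated macrophages and one of the macrophage markers, had an order of libraries like that of most of the class II genes, which was noticed after its values were seen. It stood at 335, 448 and 582 CPM in the wild-type libraries against 489, 592 and 707 CPM in the Scd2-m/-m libraries, in the order of their replicate numbers. Wild-type replicate 1 was the lowest library of the 6, and replicate 3 of each genotype was the highest of its group. Replicate 1 lowest and replicate 3 highest in the wild-type libraries is an order held by 21.3% of all genes tested. *Mrc1* was not called, with a log2 fold change of 0.39, a 95% interval from −0.25 to 1.03 and an FDR of 0.373 by edgeR.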
